A study of Mus musculus with 2 samples.

Results

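The mitochondrial ribosomal protein genes are the nuclear genes for the proteins of the ribosome inside mitochondria. They were taken as the RefSeq protein-coding genes on chromosomes 1 to 19 whose symbol starts with Mrpl or Mrps followed by a number. This gave 78 of 20665 protein-coding genes in assembly GRCm38.p6, and 6 further matching symbols were pseudogenes. DNA associated with PHLPP1, a protein phosphatase that dephosphorylates the kinase AKT, was mapped by CUT&Tag in mouse bone marrow-derived macrophages. In this assay an antibody brings a transposase to its target in permeable cells, and the DNA nearby is tagged for sequencing. Both of the 2 libraries came from cells differentiated with 20 ng/ml M-CSF. One was made after 4 h of IL-4 at 20 ng/ml and the other from untreated cells. The cells are wild-type by the design text, and the same PHLPP1 antibody was used in both. With 1 library in each group, no difference between the groups has a replicate check and no test was made. No library from PHLPP1-deficient cells or with a control antibody was analysed here.

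Mitochondrial ribosomes translate the few proteins encoded by mitochondrial DNA, which are core subunits of the respiratory chain and of ATP synthase. Their ribosomal RNAs come from mitochondrial DNA, whereas every one of their proteins is encoded in the nucleus, made in the cytosol and imported. Mrpl symbols mostly denote proteins of the large subunit, which joins amino acids, and Mrps symbols proteins of the small subunit, which reads the mRNA. Some have a counterpart in bacterial ribosomes and others are found only in mitochondria. Mrps18a and Mrps30 encode proteins of the large subunit despite their names, and the product of Mrps36 is now known as a part of the 2-oxoglutarate dehydrogenase complex.

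The IL-4 list held 240661 peaks and the untreated list 149349. A gene-end peak has its summit no more than 1 kb from the annotated start or end of a gene. The number of fragments at a summit was solved from the deposited fold enrichment and p-value. A site is listed from 3 fragments in the IL-4 library and from 4 in the untreated library, so an unlisted site can still hold fewer. Local background was at least 0.643 fragments for IL-4 and 0.936 for untreated, and fragment numbers are not scaled for it. Exact Poisson 95% intervals cover counting error only. CUT&Tag does not measure expression, so the cell label could be checked only weakly. Of 10 macrophage marker genes, 6 had an IL-4 gene-end peak and 1 an untreated one, and Adgre1, Csf1r, Itgam and Lyz2 had none. For other cell types the IL-4 and untreated counts were 0 and 1 of 4 B cell markers, 0 and 0 of 4 stromal markers, 2 and 0 of 4 neutrophil markers and 3 and 3 of 5 T cell markers. The shares of all protein-coding genes were 51.5% and 24.0%, so counts this small cannot identify the cell type.

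The promoters below carry the strongest IL-4 gene-end peaks that overlap a promoter window, and that of Mrps11 is added because 1 peak there serves 2 of the genes. Mrps11 was chosen after its values were seen. Each runs from 250 bases before to 50 bases after the transcript start, from RefSeq on GRCm38.p6, 5′ to 3′ on the gene's own strand. Capitals mark the letters GCGCANGCG (NRF1), CCGGAAG (ETS factors), GGGCGG (SP and KLF factors), AANATGGCG (YY1) or CCAAT on either strand.
Mrpl41, chr2:24975049-24975348, minus strand: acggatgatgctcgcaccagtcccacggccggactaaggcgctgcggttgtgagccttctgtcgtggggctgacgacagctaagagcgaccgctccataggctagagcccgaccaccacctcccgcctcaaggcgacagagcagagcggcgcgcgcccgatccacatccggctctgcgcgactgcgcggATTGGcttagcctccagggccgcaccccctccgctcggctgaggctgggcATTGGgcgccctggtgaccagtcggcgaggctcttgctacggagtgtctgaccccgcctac
Mrps9, chr1:42850983-42851282, plus strand: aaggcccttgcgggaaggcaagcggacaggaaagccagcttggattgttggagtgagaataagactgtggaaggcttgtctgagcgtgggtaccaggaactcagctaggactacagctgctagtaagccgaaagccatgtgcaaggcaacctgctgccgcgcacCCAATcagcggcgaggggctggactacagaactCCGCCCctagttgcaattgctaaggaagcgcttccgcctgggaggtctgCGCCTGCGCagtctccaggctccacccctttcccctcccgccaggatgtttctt
Mrpl11, chr19:4962056-4962355, plus strand: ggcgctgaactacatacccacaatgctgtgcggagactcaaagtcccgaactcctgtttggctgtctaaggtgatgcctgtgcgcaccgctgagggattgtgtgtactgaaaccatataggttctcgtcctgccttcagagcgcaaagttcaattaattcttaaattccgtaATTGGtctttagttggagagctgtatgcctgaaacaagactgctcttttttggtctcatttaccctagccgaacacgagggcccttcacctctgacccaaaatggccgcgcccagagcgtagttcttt
Mrps18b, chr17:35916391-35916690, minus strand: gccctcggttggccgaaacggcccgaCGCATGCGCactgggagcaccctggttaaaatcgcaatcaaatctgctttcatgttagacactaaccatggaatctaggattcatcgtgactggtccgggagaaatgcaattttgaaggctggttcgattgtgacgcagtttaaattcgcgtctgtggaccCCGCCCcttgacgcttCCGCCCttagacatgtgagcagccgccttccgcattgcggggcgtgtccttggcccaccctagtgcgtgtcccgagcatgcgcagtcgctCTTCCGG
Mrpl47, chr3:32736706-32737005, minus strand: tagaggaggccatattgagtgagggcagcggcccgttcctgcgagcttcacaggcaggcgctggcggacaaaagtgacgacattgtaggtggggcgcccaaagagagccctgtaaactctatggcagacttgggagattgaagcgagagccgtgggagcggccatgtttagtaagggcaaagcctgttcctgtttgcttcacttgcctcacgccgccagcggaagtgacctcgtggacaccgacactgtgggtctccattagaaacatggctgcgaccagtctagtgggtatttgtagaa
Mrpl17, chr7:105811038-105811337, minus strand: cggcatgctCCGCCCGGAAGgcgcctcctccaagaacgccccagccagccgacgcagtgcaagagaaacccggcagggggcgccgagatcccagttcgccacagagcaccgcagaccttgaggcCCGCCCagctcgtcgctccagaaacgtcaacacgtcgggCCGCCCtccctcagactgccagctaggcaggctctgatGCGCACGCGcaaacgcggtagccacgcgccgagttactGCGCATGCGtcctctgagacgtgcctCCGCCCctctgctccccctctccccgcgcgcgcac
Mrps11, chr7:78782881-78783180, plus strand: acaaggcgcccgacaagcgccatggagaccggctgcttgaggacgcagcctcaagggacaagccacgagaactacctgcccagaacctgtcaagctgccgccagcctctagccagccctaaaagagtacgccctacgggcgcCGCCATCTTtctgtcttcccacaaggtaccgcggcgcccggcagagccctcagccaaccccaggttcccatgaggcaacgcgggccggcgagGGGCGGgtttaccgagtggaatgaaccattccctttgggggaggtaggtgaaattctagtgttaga

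The strongest IL-4 peaks stood at genes of both subunits and rested on 10 to 14 fragments. Mrpl41, for a mitochondria-specific protein of the large subunit, had 14 fragments (7.65 to 23.5) and a −log10 q of 6.19 in the IL-4 library, at chr2:24975061-24975961, and no gene-end peak in the untreated library. Its summit lay 282 bp upstream of the annotated start, and the peak is shared with Pnpla7, for a lysophospholipase. Its promoter holds CCAAT letters at positions -61 and -11, counted from the transcript start, and none of the other 4 motifs.

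Mrps28, for a small subunit protein, had 11 fragments (5.49 to 19.7) and a −log10 q of 6.19 in the IL-4 library, against 4 fragments (1.09 to 10.2) and 0.408 in the untreated library. The IL-4 peak, at chr3:8923271-8924168, covers the untreated one, and the summits were 71 bp apart. Counting intervals of the 2 libraries overlap at this site.

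Mrps9, for a small subunit protein with a bacterial counterpart, had 11 fragments (5.49 to 19.7) and a −log10 q of 5.70 in the IL-4 library, at chr1:42850967-42851520, and no untreated peak. Its summit was 19 bp upstream of the start, beside the NRF1 letters at position -4 of the sequence above. Mrpl11, for a protein that in bacteria sits at the base of the stalk where translation factors bind, had 10 fragments (4.80 to 18.4) and a −log10 q of 5.36 at chr19:4962106-4962357. It too had no peak in the untreated list. These 4 genes had −log10 q values of 5 or more in the IL-4 list, 4 of 78 (5.13%, Wilson 95% interval 2.01 to 12.5) against 2.77% of all protein-coding genes, which lies inside the interval. In the untreated list 0 of 78 passed that value, against 0.0581% of all genes.

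At q of at most 0.05, 17 of 78 genes (21.8%, 14.1 to 32.2) had an IL-4 gene-end peak, against 19.2% of all protein-coding genes. Next after the first 4 came Mrps18b, with 12 fragments (6.20 to 21.0) in the IL-4 library and 7 (2.81 to 14.4) in the untreated library, at −log10 q 4.20 and 1.57. Both summits lay upstream of its start, 10 bp apart, and both peaks are shared with Ppp1r10, for a regulatory subunit of protein phosphatase 1. Mrpl47 had 8 fragments with IL-4 and no untreated peak, and shares its peak with Ndufb5, for a subunit of respiratory complex I. Mrpl54, sharing its peak with the adaptor gene Apba3, had 10 fragments with IL-4 and 4 without. Mrpl17 had 8 with IL-4 and 4 without, with summits 61 bp apart and 79 and 18 bp upstream of the start. Its promoter is the richest in motif letters of those printed, with NRF1 letters at -49 and -11.

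Mrps14 had 7 fragments with IL-4 and 6 without, and Mrps7, whose bacterial counterpart starts the assembly of the small subunit's head, had 8 and 7. Both pairs of peaks overlapped and lay at the start, and the fragment numbers of the 2 libraries were close. Both peaks of Mrps7 are shared with Gga3, with summits 303 bp (IL-4) and 134 bp (untreated) upstream of the Mrps7 start. Mrpl49 had 7 fragments with IL-4 at a peak shared with Fau, which encodes a protein of the cytosolic ribosome, and no untreated peak. Mrps23 had 7 with IL-4 at its 3′ end and no untreated peak. It is the gene of these 17 whose peak was known to lie nearer the 3′ end.

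The other 5 genes at this threshold each had 6 fragments and a −log10 q of 1.84 in the IL-4 library. Mrpl46 and Mrps11 are head to head on chromosome 7 with 42 bp between them, and 1 peak at chr7:78782927-78783320 covers both starts. Mrpl46 encodes a large subunit protein and Mrps11 a small subunit protein, and neither had an untreated peak. The promoter of Mrps11 holds YY1 letters on the opposite strand at -108. Mrps6, which shares its peak with the myo-inositol transporter gene Slc5a3, and Mrpl21, which shares its peak with the helicase gene Ighmbp2, also had no untreated peak. Mrps36 had 5 fragments in the untreated library.

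**Figure D1:**
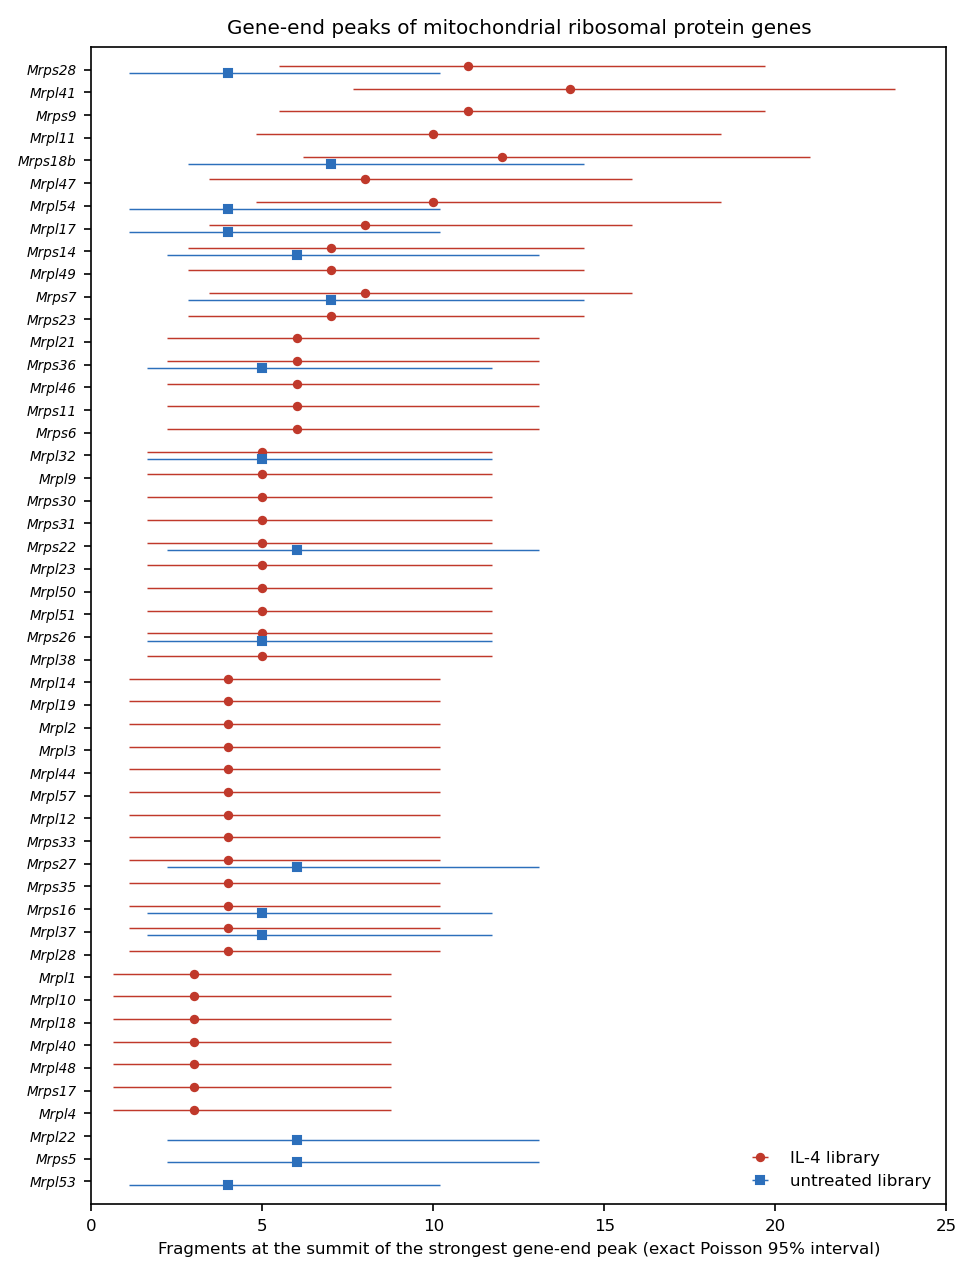
Fragments at the summit of the strongest gene-end peak (x axis) of each of the 50 genes with one, ordered by −log10 q in the IL-4 library. Red circles are the IL-4 library and blue squares the untreated library, with exact Poisson 95% intervals, and a missing symbol means that no peak was listed. IL-4 values run from 3 to 14 fragments and untreated values from 4 to 7.

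Most of the remaining sites were near the lowest number of fragments that the lists hold. Over all 47 genes with an IL-4 gene-end peak the median was 5 fragments, which is also the median over all protein-coding genes with such a peak. Of the 47, 7 had 3 fragments, 13 had 4, 10 had 5 and 17 had 6 or more. Those with 5 fragments in the IL-4 library include Mrps22, Mrps26, Mrps30, Mrps31, Mrpl9, Mrpl23, Mrpl32, Mrpl38, Mrpl50 and Mrpl51. Mrpl12, for the protein of the stalk that recruits translation factors, had 4 with IL-4 and no untreated peak. Mrpl2, whose bacterial counterpart lies near the centre where peptide bonds form, also had 4. Mrpl10, for the protein that anchors the stalk, had 3.

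In the untreated list 16 of 78 genes (20.5%, 13.0 to 30.8) had a gene-end peak, against 24.0% of all protein-coding genes, and they held 4 to 7 fragments. Mrps18b and Mrps7 were the highest, at 7 fragments and a −log10 q of 1.57, and were the 2 genes past q of 0.05, against 4.25% of all genes. Next came Mrps14, Mrps22, Mrps27, Mrps5 and Mrpl22 with 6 fragments each at 1.11. Mrps22 had 5 fragments with IL-4 and 6 without, at summits 849 bp apart. Mrps27 had 4 and 6, but at opposite ends of a gene of about 71 kb, so these are not the same site. Mrpl32 had 2 IL-4 gene-end peaks of 5 fragments each, 1 near its 3′ end and 1 with its summit 85 bp upstream of its start. Its untreated peak, also of 5 fragments, had its summit 107 bp upstream of the start, where the gene lies next to the proteasome gene Psma2.

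Every one of the 78 genes falls in 1 of 4 classes. Both lists had a gene-end peak at 13 genes (16.7%), the IL-4 list alone at 34 (43.6%), the untreated list alone at 3 (3.85%) and neither at 28 (35.9%). Over all protein-coding genes the shares were 14.6%, 36.9%, 9.39% and 39.2%. Any IL-4 gene-end peak was found at 47 of 78 genes (60.3%, 49.2 to 70.4), against 51.5% of all. Among genes no shorter or longer than the members it was 51.8%. With this window these shares are close to the background, and the lower bound of the interval is below it. Within 500 bp the share with an IL-4 peak stood further above the background, with IL-4 peaks at 40 of 78 genes (51.3%, 40.4 to 62.1) against 38.2% of all genes. There, peaks in both lists stood at 11 (14.1%, 8.06 to 23.5) against 7.25%, and untreated peaks at 13 (16.7%) against 14.1%, and none of this was tested. The lists differ in length, so these classes state what was listed, and no change was tested. The IL-4-only class holds all 7 genes with 3 fragments, a number below the lowest in the untreated list. Counted from 4 fragments, 27 genes (34.6%) were IL-4-only, against 30.8% of all genes. With lists of equal length they were 26 (33.3%), against 28.8%. With a window of 3 kb, untreated peaks stood at 33 of the 78 (42.3%, 32.0 to 53.4), against 48.6% of all genes. IL-4 peaks stood at 64 (82.1%, 72.1 to 89.0), against 76.6%, and both values over all genes lie inside the intervals.

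The 3 untreated-only genes were Mrps5 and Mrpl22, with their strongest peaks near the 3′ end, and Mrpl53, with 4 fragments at its start. Mrps5 also had an untreated peak of 4 fragments with its summit 136 bp downstream of its start. In the 13 genes with both peaks, 7 had more fragments with IL-4, 2 had equal numbers and 4 had fewer. The strongest peaks of the 2 lists overlapped at 8 of them: Mrps28, Mrps18b, Mrpl54, Mrpl17, Mrps14, Mrps7, Mrps36 and Mrps16. These 8 are the 7 with more fragments with IL-4 and Mrps16, with 4 with IL-4 and 5 without. At Mrpl32 and Mrps26 (equal) and Mrps22, Mrps27 and Mrpl37 (fewer with IL-4), the peaks compared did not overlap. The numbers are not scaled for background, and the differences were not tested. Counted over the strongest peak of each gene, 8 of 46 distinct IL-4 peaks (17.4%, exact binomial interval 7.82 to 31.4) overlapped an untreated peak. This compares with 9.99% of such peaks over all genes, which is inside the interval. Counted by summits within 200 bp, the share was again 8 of 46, against 7.80% over all genes, just below the interval. With more of the shorter peak required to overlap, it was 7 of 46 (15.2%, 6.34 to 28.9), against 8.04%, inside the interval. Weaker or tied peaks, such as the IL-4 peak at the start of Mrpl32, were not counted.

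The genes with no gene-end peak in either list belong to both subunits. Of the large subunit they were Mrpl13, Mrpl15, Mrpl16, Mrpl20, Mrpl24, Mrpl27, Mrpl30, Mrpl33, Mrpl34, Mrpl35, Mrpl36, Mrpl39, Mrpl42, Mrpl43, Mrpl45, Mrpl52, Mrpl55, Mrpl58 and Mrps18a. Mrpl45 encodes a protein near the exit of the tunnel for new chains, and Mrpl58 a hydrolase that releases stalled chains. Of the small subunit they were Mrps2, Mrps10, Mrps12, Mrps15, Mrps18c, Mrps21, Mrps24, Mrps25 and Mrps34. Mrps12 encodes the counterpart of a bacterial protein of the decoding centre.

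The annotated end of a gene is not always where its RefSeq transcript starts. Of the 69 genes with an entry in the promoter table, 21 have a transcript start off the annotated one, 12 of them by more than 200 bp. Mrpl18, with 3 fragments near its 3′ end, had an IL-4 peak of 9 fragments and a −log10 q of 4.35 at 65 bp upstream of its transcript start, 1631 bp from the nearest gene end. Mrpl36 had one of 6 fragments, Mrps2 one of 5 and Mrpl24 one of 4, all more than 1 kb from the annotated ends. No untreated peak was added in this way.

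Split by subunit the counts are small, and the differences were not tested. An IL-4 gene-end peak was found at 30 of 51 large subunit genes (58.8%, 45.2 to 71.2) and at 16 of 26 small subunit genes (61.5%, 42.5 to 77.6), against 51.5% of all protein-coding genes. An untreated one was found at 6 of 51 (11.8%, 5.51 to 23.4) and 9 of 26 (34.6%, 19.4 to 53.8), against 24.0%, which lies just above the interval of the large subunit and inside that of the small. Peaks in both lists were thus at 4 large subunit genes, Mrpl54, Mrpl17, Mrpl32 and Mrpl37, and at 8 small subunit genes. At q of at most 0.05 the IL-4 counts were 8 of 51 (15.7%) and 8 of 26 (30.8%), against 19.2%. Mrps36 was left out of this split.

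**Figure D2:**
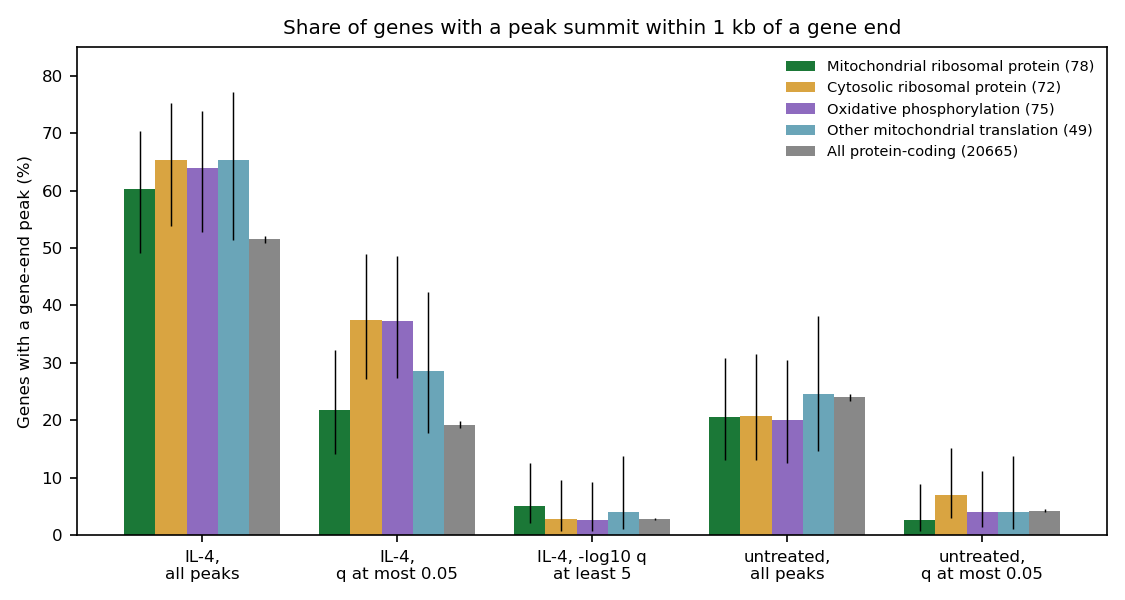
Share of genes (y axis, percent) with gene-end peaks from the IL-4 and untreated libraries at the thresholds named on the x axis, with Wilson 95% intervals as bars. At q of at most 0.05 the IL-4 share was 21.8% of mitochondrial ribosomal protein genes, 37.5% of cytosolic ribosomal protein genes, 37.3% of oxidative phosphorylation subunit genes and 19.2% of all protein-coding genes.

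At q of at most 0.05 the mitochondrial ribosomal protein genes were near the background in the IL-4 list, with 17 of 78 (21.8%) against 19.2% of all genes. Higher shares stood at 27 of 72 genes of the cytosolic ribosome (37.5%) and 28 of 75 genes for subunits of the oxidative phosphorylation complexes (37.3%). The other genes of mitochondrial translation lay between, with 14 of 49 (28.6%, 17.8 to 42.4). Over all peaks the ribosomal protein genes of mitochondria and cytosol and the oxidative phosphorylation genes were closer, at 60.3%, 65.3% and 64.0%, and with −log10 q values of 5 or more they held 4, 2 and 2 genes. The differences between the sets were not tested, and the Wilson intervals of the other sets overlap that of the mitochondrial ribosomal protein genes.

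The other genes of mitochondrial translation held 2 sites with more fragments than any mitochondrial ribosomal protein gene, at Mtrf1l and Tfb1m. The list of 50 names covers ribosomal proteins with other symbols, translation factors and assembly factors. It also holds genes of mitochondrial transcription and RNA handling, such as Tfam and Lrpprc, and 49 of the names were in the gene table. Of these, 32 (65.3%) had an IL-4 gene-end peak, 14 (28.6%) had one at q of at most 0.05 and 12 (24.5%) had an untreated one, against 51.5%, 19.2% and 24.0% of all genes. With −log10 q values of 2 or more and 5 or more, 5 (10.2%) and 2 (4.08%) had an IL-4 peak, next to 11 (14.1%) and 4 (5.13%) of the mitochondrial ribosomal protein genes. Mtrf1l, for a release factor that ends translation at stop codons, had 24 fragments with IL-4 and 12 without, at −log10 q 17.4 and 5.23. Tfb1m, for the methyltransferase of the small subunit's ribosomal RNA, had 15 and 5. Mtg1, for a GTPase of large subunit assembly, had 7 fragments in each library. Mrrf, for the ribosome recycling factor, had 8 fragments with IL-4, and Mettl15, for a methyltransferase of the small subunit's RNA, had 7, both with no untreated peak.

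The gene-end peaks lay mostly at starts. Among 41 genes with an IL-4 peak and a known strand, the strongest peak was nearer the start at 32 and nearer the 3′ end at 9. Of the 9, Mrpl32, Mrps26 and Mrpl51 also had an IL-4 peak within 1 kb of the start. At q of at most 0.05 the strongest peak was nearer the start at 14, nearer the 3′ end at Mrps23 alone and of unknown strand at Mrps28 and Mrpl54. In the untreated list the strongest peak was nearer the start at 11 and nearer the 3′ end at 3, of which Mrps5 also had a start peak. Within 1 kb of the annotated start, 35 of 69 genes of known strand (50.7%) had an IL-4 peak and 12 (17.4%) an untreated one, against 41.8% and 14.7% of all such genes. Within 1 kb of the annotated 3′ end, 14 (20.3%) had an IL-4 peak and 4 (5.80%) an untreated one, against 19.8% and 11.5%. Counted around transcript starts, 39 of 69 genes (56.5%) had an IL-4 peak within 1 kb and 12 (17.4%) an untreated one, against 43.4% and 15.1% of all 16457 protein-coding genes with a promoter entry. The bin of 1 kb just upstream held 37.7 IL-4 summits per 100 genes and that just downstream 24.6, against 25.5 and 26.7 over all genes. In the untreated library these bins held 14.5 and 4.35 per 100 genes, against 8.05 and 8.23 over all genes. The untreated values of the members rest on 10 and 3 summits.

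**Figure D3:**
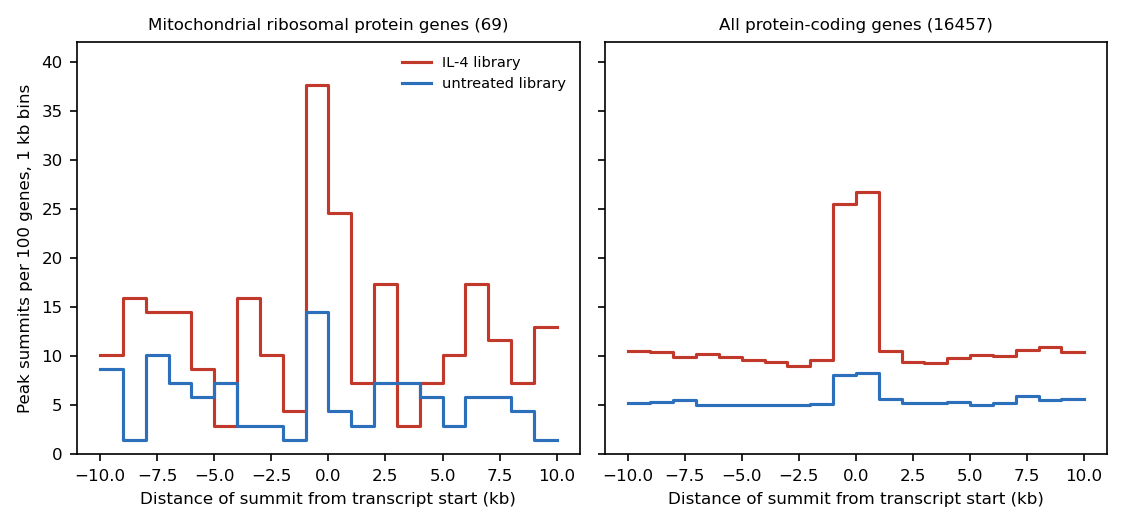
Peak summits per 100 genes in 1 kb bins (y axis) by distance from the transcript start (x axis, kb, gene direction to the right), for 69 mitochondrial ribosomal protein genes (left) and 16457 protein-coding genes (right). Red lines are the IL-4 library and blue lines the untreated library. The IL-4 line is highest in the 2 bins beside the start in both panels, at 37.7 and 24.6 on the left. The untreated line on the left is highest just upstream of the start, at 14.5.

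These promoters were rich in CpG, and the share with a peak near the start was close to that over all promoters in their CpG range. The 300-base promoters of the 69 genes held 7 to 39 CpG with a median of 21, against a median of 14 over all promoters. Among all genes with 7 to 39 CpG, 55.1% had an IL-4 peak within 1 kb of the transcript start and 16.9% an untreated one, next to 56.5% and 17.4% of the members. The median was 21 CpG in the 39 members with an IL-4 start peak and 22 in the 30 without, against 21 and 7 over all genes. By number of CpG the shares went both ways around those over all genes, in small counts. An IL-4 start peak stood at 9 of 13 members with 10 to 14 CpG (69.2%, against 47.6%), 9 of 16 with 15 to 19 (56.2%, against 54.1%), 12 of 29 with 20 to 29 (41.4%, against 60.8%) and 8 of 9 with 30 or more (88.9%, against 64.3%).

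Many of these genes also stand close to another gene. An end of another protein-coding gene lay within 1 kb of 44 of the 78 (56.4%), against 25.6% of all protein-coding genes. Of these 44, 29 (65.9%) had an IL-4 gene-end peak, against 65.3% of all genes with such a neighbour. Of the other 34, 18 (52.9%) had one, against 46.7% of all genes with none. In 20 of the 47 genes with an IL-4 peak, the strongest peak also counts for another gene, so the signal there cannot be assigned to 1 of them.

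The letters bound by NRF1, ETS factors and YY1 stood in a larger share of these promoters than of all promoters. These are known regulators of nuclear genes for mitochondrial proteins. The NRF1 letters stood in 16 of 69 promoters (23.2%), against 9.08% of all promoters of this length, the ETS letters in 24 (34.8%), against 12.3%, and the YY1 letters in 11 (15.9%), against 3.28%. The SP and KLF letters stood in 34 (49.3%, against 47.3%) and CCAAT in 27 (39.1%, against 39.1%). Matches of different motifs can overlap, as those of SP and ETS letters do near the 5′ end of the Mrpl17 sequence. The letters TTC and GAA with 4 bases of any kind between them, the motif of the IL-4-activated factor STAT6, stood in 3 (4.35%, against 6.40%), at Mrpl44, Mrpl53 and Mrps17. GAGGAAG, bound by the macrophage factor PU.1, stood in 8 (11.6%, against 13.1%). The E-box CACGTG stood in 5 (7.25%, against 7.97%), TGACGTCA (CRE) in 2 (2.90%, against 2.40%) and TATAAA in 4 (5.80%, against 13.5%). A match is a description of letters and not a bound site.

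Split by the IL-4 start peak, the letters did not all fall alike. SP and KLF letters stood in 24 of 39 promoters with a peak (61.5%) and 10 of 30 without (33.3%), next to 63.0% and 35.3% over all genes. NRF1 letters stood in 11 of 39 (28.2%) and 5 of 30 (16.7%), next to 13.4% and 5.80%. ETS letters went the other way in these genes, in 9 of 39 (23.1%) with a peak and 15 of 30 without, whereas over all genes they stood in 16.3% and 9.14%. YY1 letters did likewise, in 4 of 39 (10.3%) and 7 of 30 (23.3%), next to 4.80% and 2.11%. The 15 genes with ETS letters and no IL-4 start peak include Mrpl27, Mrpl33, Mrpl34, Mrpl43, Mrpl52, Mrps12 and Mrps18c. These splits were seen in the data and were not tested.

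**Figure D4:**
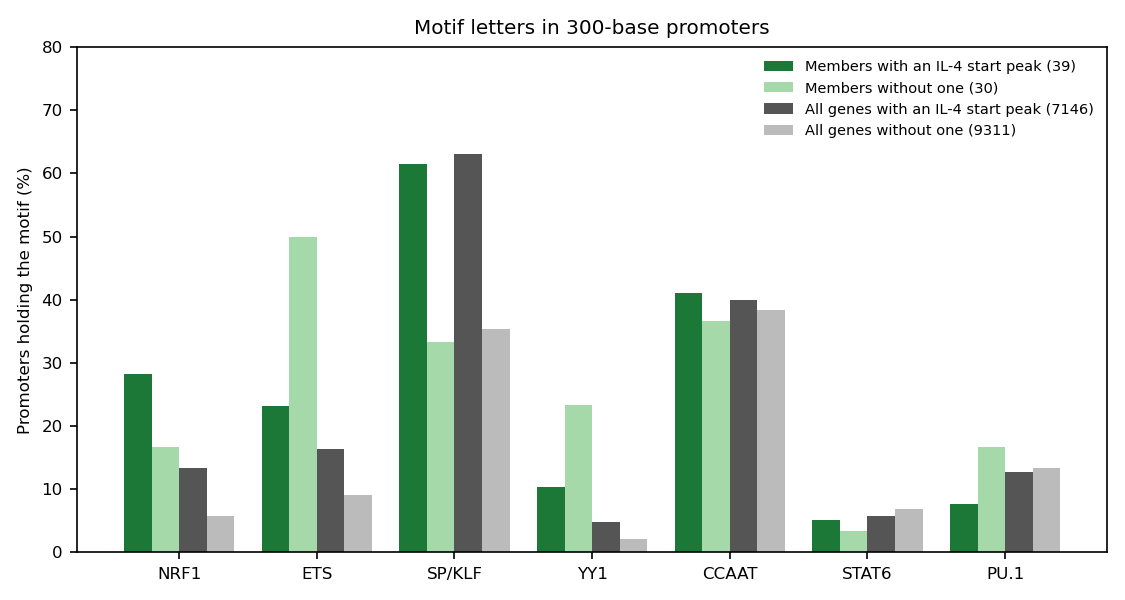
Share of 300-base promoters (y axis, percent) that hold the letters of each motif (x axis) on either strand, in mitochondrial ribosomal protein genes with an IL-4 peak within 1 kb of the transcript start (dark green, 39) and without one (light green, 30), and in all protein-coding genes with (dark grey, 7146) and without one (light grey, 9311). ETS letters stood in 9 of the 39 and 15 of the 30 promoters, and in 16.3% and 9.14% over all genes.

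Peaks within 50 kb of the genes were more often from the IL-4 library, whose list is longer, as around most genes. The count per gene had a median of 14 and a range of 5 to 25 in the IL-4 library and a median of 7 and a range of 1 to 19 in the untreated library, and the medians over all protein-coding genes were also 14 and 7. The log2 ratio of the counts, each plus 1, had a median of 1.00, against 0.81 over all genes. With the lists cut to equal length it was 0.32, against 0.17 over all genes. It was above 0 at 73 of 78 genes (93.6%), against 87.3% of all genes, and at least 1 at 41 (52.6%, 41.6 to 63.3), against 40.3% of all genes and 41.9% of genes in the members' length range, the second inside the interval. The ratio was highest at Mrps15, with 21 peaks in the IL-4 library and 4 in the untreated one (2.14), at Mrpl11, with 15 and 3 (2.0), and at Mrpl45, with 7 and 1 (2.0). It was lowest at Mrpl53, with 8 and 12 (-0.53), at Mrpl30, with 5 and 6 (-0.22), and at Mrps36, with 13 and 14 (-0.10). The median was 1.12 for large subunit genes and 0.76 for small subunit genes. It was 1.14 for cytosolic ribosomal protein genes, 0.89 for oxidative phosphorylation genes and 0.83 for the other genes of mitochondrial translation. Mrpl46 and Mrps11 count nearly the same peaks.

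**Figure D5:**
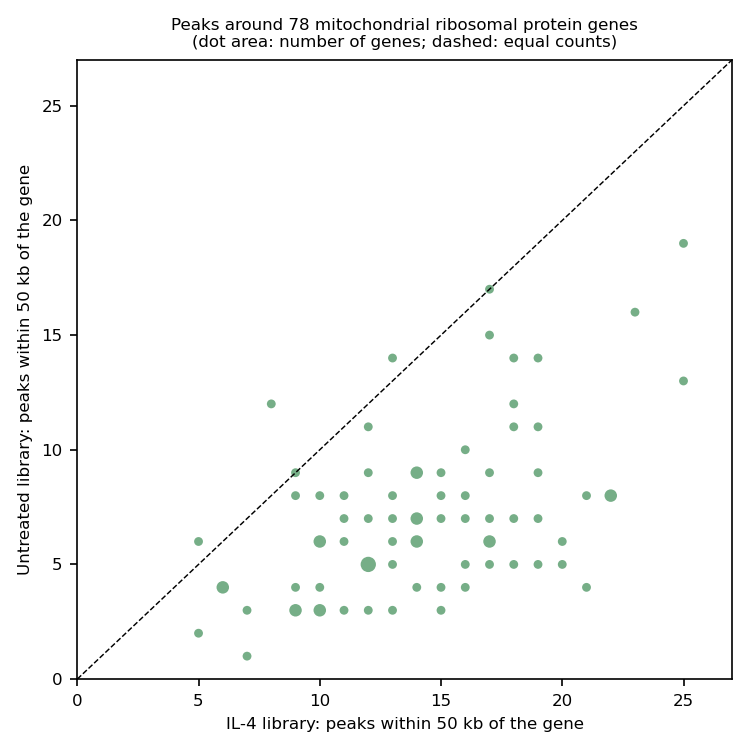
Peaks within 50 kb of each of the 78 genes in the IL-4 library (x axis) and the untreated library (y axis), with dot area giving the number of genes at a point and a dashed line at equal counts. The counts were higher in the IL-4 library at 73 genes, equal at 2 and lower at 3.

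Most of those peaks lay outside the genes. Most of the sequence in these windows is outside the genes too, and the same shares over all genes were not computed. Of 1091 distinct IL-4 peaks within 50 kb, 61 (5.59%) lay at an end of one of these genes, 87 inside one away from its ends and 943 outside. Of 554 untreated peaks the counts were 18 (3.25%), 51 and 485. With −log10 q values of 5 or more the IL-4 list had 8 peaks in these windows. Besides the 4 described first, they lay by Fahd1 near Mrps34 (15 fragments), Nup85 near Mrps7 (12), Pip5k1c near Mrpl54 (14) and Tsga10 near Mrpl30 (12). Their summits were 20, 103, 168 and 1456 bp from those genes' ends and 25507 to 44798 bp from the nearest end of the ribosomal protein gene. The untreated list had 1 such peak, of 17 fragments, 23266 bp from the end of Mrps27.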

How the data were processed

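PHLPP1 CUT&Tag libraries of IL-4-treated and untreated macrophages were compared, 1 of each. The authors deposited 1 peak list per library, with a score, a fold enrichment (a linear ratio), a −log10 p and a −log10 q for each peak, per the file layout. The deposited score equalled 10 times the −log10 p with decimals dropped in 100% of entries and was not used. The lowest deposited −log10 p was 2.0 in both lists. Bowtie 0.12.8, MACS2 2.2.7.1, DiffBind and mm10 are named in the submitters' processing notes, without their roles. The control for peak calling, fragment size and handling of duplicates were not stated in the labels, and total read numbers were not used.

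Of several entries for 1 interval, the one with the highest −log10 q was kept, from 241315 to 240661 in the IL-4 list and from 149552 to 149349 in the untreated list. Fragments were solved from fold = (fragments + 1)/(background + 1) and a Poisson upper tail, and matched within 0.01 of the −log10 p in 100% of entries. Where a gene had several gene-end peaks, the one with the highest −log10 q was taken. Genes came from RefSeq GRCm38.p6, the build of mm10. Strand and promoters came from the RefSeq promoter table, which was used after the data were seen, taking 1 transcript start a gene, the most upstream. It matched 69 of the 78 genes. Scripts (Python 3.11.15, numpy 2.4.6, pandas 2.3.3, scipy 1.17.1) were checked on simulated peaks. Genes with values were named by rule: the 15 highest by IL-4 −log10 q with ties, the 5 highest in the untreated list with ties, sites in both lists and the 3 highest and lowest peak density ratios. Further genes were named after their values were seen. Members, lists and tests were chosen with earlier results of these data known. Length-matched random genes were not drawn, and shares over all genes stand in their place.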

Additional observations from a re-analysis of the deposited data

How the results depend on the processing

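Counts were recomputed at q of at most 0.05, from 4 fragments, with lists of equal length, with windows of 500 bp and 3 kb and with any part of a peak in the window. At q of at most 0.05, IL-4 gene-end peaks stood at 17 genes, untreated ones at 2, IL-4-only ones at 15 and both at 2, against 19.2%, 4.25%, 17.7% and 1.59% of all genes. Within 3 kb, untreated peaks stood at 33 (42.3%) and both at 28 (35.9%), against 48.6% and 40.7%. With −log10 q values of 2 or more and 5 or more, IL-4 peaks stood at 11 and 4 genes, against 11.1% and 2.77%. The median log2 density ratio was 0.91 within 100 kb, 0.66 at q of at most 0.05, 0.32 with lists of equal length and 0.54 from 4 fragments, against 0.79, 0.59, 0.17 and 0.32 over all genes. These are 12 of 33 alternative values, fewer peaks or a wider window being the construction of each. The other 21 include every gene count from 4 fragments, with lists of equal length and within 500 bp. Gene counts among them stayed within 1.5 times the reported count, and overlaps within the interval of the reported share. For the density ratio only an identical value was counted as unchanged, which was that within 10 kb (1.00, against 0.74 over all genes). None of the values changed sign. Within 500 bp, peaks stood at 40 genes for IL-4, 13 for untreated, 29 for IL-4-only and 11 for both, against 38.2%, 14.1%, 31.0% and 7.25% of all genes. Most sites rest on 3 to 6 fragments, so their counting intervals are wide. No paired analysis was possible because each group has 1 library, and for the same reason no library could be left out.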
